A study of Homo sapiens with 8 samples.

Results

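The 10 genes described here carry and limit TGFβ and BMP signalling and answer to it: the ligands TGFB1 and TGFB2, the receptors TGFBR2, ACVRL1 and BMPR2, the inhibitory SMADs SMAD6 and SMAD7, and the BMP-responsive genes ID1, ID2 and ID3. They were found by symbol in a table of RefSeq transcripts from EA.hy926 cells, a hybrid of a human endothelial cell and a lung carcinoma cell. Where a gene had several transcripts, the transcript with the highest mean level over all libraries was kept, so that the 10 genes stand among 27946. All 10 were in the table, and 9 of them passed the filter on low values. TGFB2 did not. The values are FPKM, fragments per kilobase of transcript scaled to the reads of the library, which set genes of different length on a common scale. Between the groups the typical level was not equal, as given below.

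The study deleted single elements of a super-enhancer, a cluster of enhancers that act together, which is active in endothelial cells. Among the 8 libraries were 2 of control EA.hy926 cells (genotype control) and 3 of clonal lines that lack the enhancer E2 (ΔE2). The other 3 came from clonal lines that lack SE12313-b, another element of the same super-enhancer (ΔSE12313-b). The elements were cut out with Cas9 protein and guide RNAs, all cells grew in DMEM with 10% serum, no added ligand being named, and the libraries were made from total RNA after removal of ribosomal RNA. The comparisons ask how the RNA of these genes in clones that lack each element differed from control, and whether the 2 deletions differed. Each clone arose from a single edited cell and gave 1 library, so clone and library cannot be told apart. For its proliferation assay the study describes control cells that had received guide RNAs and grew alongside the clones, and it is not stated whether the same cells gave the control libraries. The EA.hy926 controls are not described as clones or as given Cas9. Against control, the loss of an element, contact with Cas9 and growth from a single cell therefore cannot be told apart. No gene was itself deleted, and so no member serves as a check of the labels.

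In this pathway a ligand dimer brings together type II and type I receptor kinases, and the type I kinase phosphorylates receptor-regulated SMADs, which enter the nucleus with SMAD4. TGFβ itself acts mainly through TGFBR2 and TGFBR1 on SMAD2 and SMAD3, while BMPs act through BMPR2 and receptors such as ACVRL1 (ALK1) on SMAD1, SMAD5 and SMAD9. In endothelium ACVRL1, BMPR2 and the co-receptor endoglin are known for their part in vessel formation, and ID genes are the best known targets of BMP signals. ID proteins have a helix-loop-helix domain without a DNA-binding part and hold E proteins away from DNA. SMAD6 and SMAD7 are induced by the signal and feed back on the receptors.

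Stretches of DNA before the start of 4 members are shown because they hold letters known as SMAD elements. Of these members, ID1 and ID2 were higher than both controls in every clone, and SMAD6 was lower in every clone. ID3 was higher in every ΔE2 clone, while the third ΔSE12313-b clone lay below both controls. Each stretch was read from GRCh37 in the direction of the gene, with 60 bases on either side of a match in capitals. The letters searched on both strands were GGCGCC (a GC-rich element of BMP SMADs), GTCTAGAC (a palindrome of SMAD3 and SMAD4), CAGACA (a SMAD element) and the E-box forms CACGTG (the MYC type), CAGCTG (the type of muscle factors) and CAGGTG (the type of ZEB and SNAI repressors). The stretch of ID1 lies at chr20:30192067-30192192 on the plus strand, and its GGCGCC begins 959 bases before the start. That of ID2 lies at chr2:8821718-8821843 on the plus strand, within ID2-AS1 on the opposite strand, with GGCGCC 335 bases before the start. That of ID3 lies at chr1:23886880-23887005 on the minus strand, with CAGACA 660 bases before the start. That of SMAD6 lies at chr15:66994502-66994629 on the plus strand, with GTCTAGAC 112 bases before the start.
ID1: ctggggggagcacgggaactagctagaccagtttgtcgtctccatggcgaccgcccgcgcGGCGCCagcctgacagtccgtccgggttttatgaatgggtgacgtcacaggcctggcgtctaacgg
ID2: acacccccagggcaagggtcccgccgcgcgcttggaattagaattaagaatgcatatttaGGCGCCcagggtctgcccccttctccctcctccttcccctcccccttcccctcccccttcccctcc
ID3: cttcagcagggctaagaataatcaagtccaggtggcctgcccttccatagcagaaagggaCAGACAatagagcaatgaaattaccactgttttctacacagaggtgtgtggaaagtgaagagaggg
SMAD6: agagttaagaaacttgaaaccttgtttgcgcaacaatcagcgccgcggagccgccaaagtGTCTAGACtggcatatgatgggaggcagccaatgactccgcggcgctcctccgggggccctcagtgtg

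Matches of this kind are frequent, and each describes letters rather than a bound site. Of 27850 windows of 1500 bases before a gene start, GGCGCC was present in 35.7%, CAGACA in 60.2% and GTCTAGAC in 0.908%. Of the E-boxes, CACGTG was present in 21.3% of them, while CAGCTG was present in 49.6% and the form CAGGTG in 73.9%. ID1 and ID2 each held 1 GGCGCC, BMPR2 held 2, SMAD6 held 4 and SMAD7 held 6, whereas TGFB1, TGFB2, TGFBR2, ACVRL1 and ID3 held none in this window. CAGACA, shown above for ID3, stood 4 times before ACVRL1 and once each before TGFB1, TGFB2, BMPR2 and ID3, and not before the other 5, so it was found before members that rose and members that did not. The kept SMAD7 transcript starts 1378 bases inside the longest one, so its window overlaps that transcript. GTCTAGAC was found in SMAD6 alone among the members, also in the shorter promoters of RefSeq (GRCh38.p14, 250 bases before starts that can differ from those of the table), where 0.182% of 35116 promoters held it. In those shorter promoters BMPR2 held 1 GGCGCC, the letters that 16.4% of promoters had, and BMPR2 and TGFB2 held 1 CAGACA each, which 13.6% had. As to E-boxes, CACGTG (6.34% of promoters) stood once in TGFB2, CAGCTG (14%) once in ID2, once in BMPR2 and 2 times in 1 of the 2 promoters of TGFBR2, and CAGGTG (17.5%) once in SMAD7. The RefSeq promoter table matched 9 of the 10 members, and ACVRL1 was not among them.

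Each library held from 12067560 to 19101153 reads, of which 7802427 to 13374260 lay on the genes. The 2 control libraries differed from each other by little more than counting noise (chi-square per degree of freedom 1.19 over genes), whereas pairs of clones with the same deletion gave 4 to 22.9. The second ΔE2 clone and the third ΔSE12313-b clone stood apart from their sister clones. It is not stated that the control libraries were separate cultures, so the p-values measure only the spread between these libraries, which may be technical among the controls. Over all 13790 genes tested the median difference on the log2 scale was 0.14 for ΔE2 and 0.27 for ΔSE12313-b against control, and -0.11 for ΔE2 against ΔSE12313-b. Values given as centred are relative to those shifts. The 12 endothelial markers summed to 317 FPKM in both controls, 340 to 535 in ΔE2 and 342 to 464 in ΔSE12313-b, with CLDN5 without a read in all libraries. They moved in different directions. Means in control, ΔE2 and ΔSE12313-b were 1.92, 0.537 and 0.515 FPKM for VWF, and 103, 99.2 and 77.3 for CDH5. They were 5.98, 13.9 and 26.0 for PECAM1, and 7.68, 18.7 and 16.6 for ERG. The 10 epithelial markers summed to 363 to 365 FPKM in control, 1087 to 1212 in ΔE2 and 813 to 1071 in ΔSE12313-b, with CDH1 without a read. The 8 fibroblast and mural markers gave 28.4 to 29.9 FPKM in control, 17.9 to 39.0 in ΔE2 and 44.1 to 66.1 in ΔSE12313-b, with DPT and LUM without a read. RGS5 made up most of that sum, with means of 23.4, 27.2 and 54.0 FPKM in control, ΔE2 and ΔSE12313-b. ACTA2 fell, with 5.59, 0.86 and 0.924. The 6 leukocyte markers summed to 0.176 to 0.426 FPKM in control, 0.760 to 2.88 in ΔE2, where LYZ had a mean of 1.66 beside 0.211 in control, and 0.132 to 0.312 in ΔSE12313-b, with CD3E without a read. The epithelial sum was higher in every clone than in the controls, as was ID1, and it was carried by the keratins KRT7, KRT8 and KRT18. Of the other epithelial markers, MUC1 had means of 1.93, 1.88 and 1.70 FPKM in control, ΔE2 and ΔSE12313-b, EPCAM 0.399, 0.186 and 0.0497, and CLDN4 0.329, 0.0417 and 0.153. CLDN7 (0.029, 0.112 and 0.104) and KRT19 (0.0, 0.0867 and 0.0877) were higher in the means of the clones, on few reads. The part of these markers in the results below was not tested. In bulk RNA, fewer cells of a type and less RNA per cell cannot be told apart.

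A gene is called here when it differed 2-fold or more and limma on log2(FPKM + 0.1), with Benjamini-Hochberg adjustment over all genes tested, put its adjusted p under 0.05. In ΔE2, 2 of the 9 tested members were called, ID1 and ID3, both higher, where 11.2% of all genes tested were called higher and 8.36% lower. In ΔSE12313-b, 2 of 9 were called, ID1 and ID2, both higher, where 14.7% of all genes were called higher and 7.83% lower. ID2 entered the test only through the clones, where it was high, and its call is therefore no support for a difference. At an adjusted p under 0.05 without a limit on size, 7 of 9 members passed in ΔE2 (4 higher, 3 lower), against 54.1% of all genes tested. Without ΔE2 1 it was 5 of 9 (4 higher, 1 lower) against 48.6%, and with the libraries centred 8 of 9 (4 higher, 4 lower) against 52.7%. In ΔSE12313-b 3 of 9 passed, all higher (ID1, BMPR2 and ID2), against 59.4% of all genes. With the libraries centred 6 of 9 passed there, 2 higher (ID1 and ID2) and 4 lower (TGFB1, TGFBR2, ACVRL1 and SMAD6), against 55.0% of all genes. Of all genes called, 57.2% were higher in ΔE2 and 65.3% in ΔSE12313-b, but 44.4% and 43.3% with the libraries centred. The median difference of the 9 was 0.60 in ΔE2 and 0.38 in ΔSE12313-b. Between the deletions no member was called (limma, 4.23% of all genes in either direction), and 2 of 9 had an adjusted p under 0.05 against 26.0% of all genes. Limma's voom on the reads recovered from the FPKM also called no member between the deletions.

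**Figure D1:**
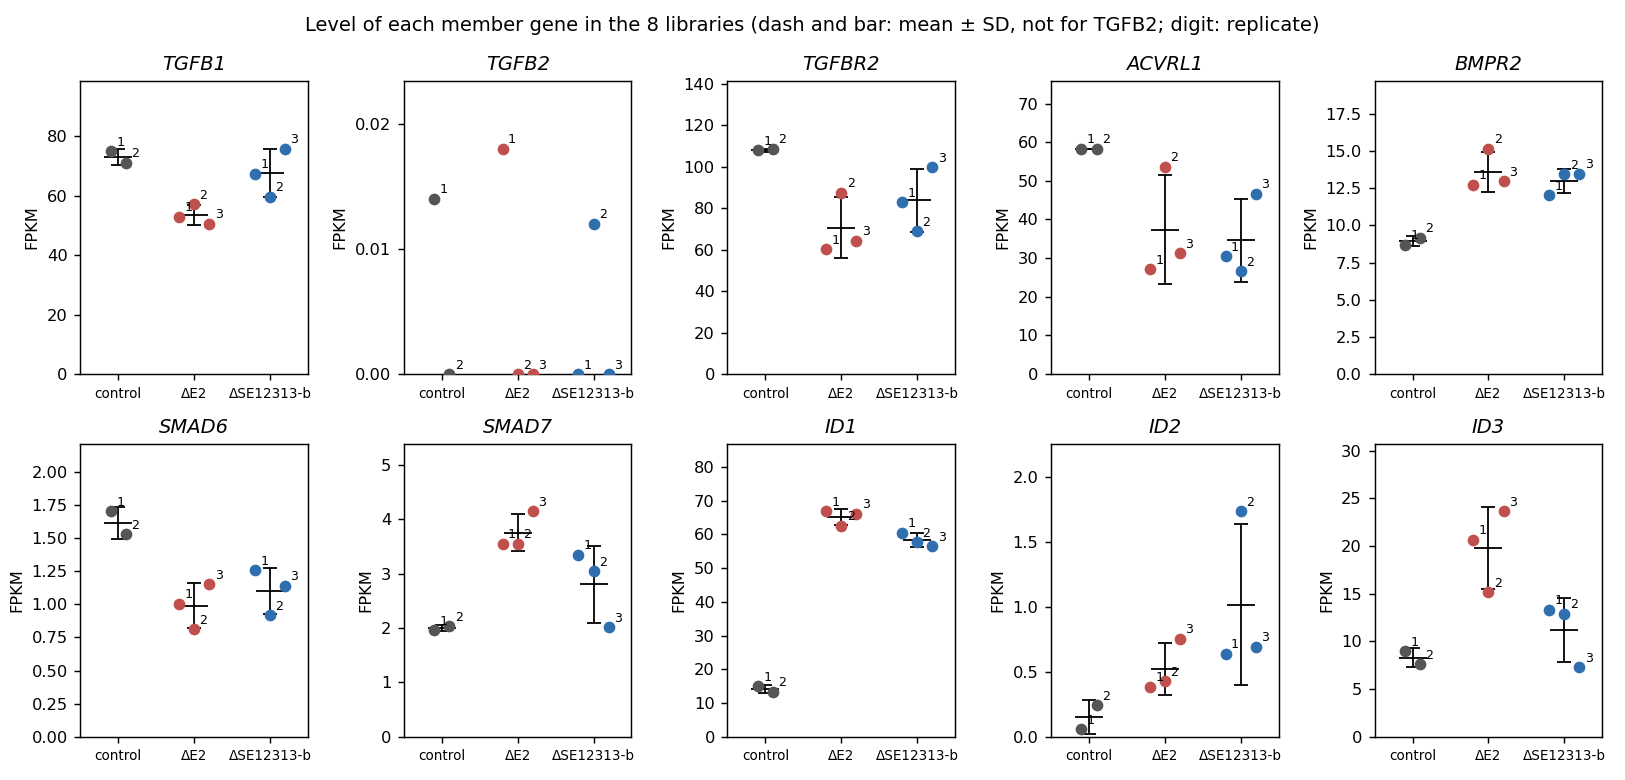
Level of each member in FPKM (vertical axes, each from 0) in the 2 control, 3 ΔE2 and 3 ΔSE12313-b libraries; points are libraries with their replicate number, the dash and bar are mean ± SD, which are not drawn for TGFB2. All 6 clones lie above both controls for ID1, ID2 and BMPR2 and below both for TGFBR2, ACVRL1 and SMAD6. The share of all genes separated in this way is not given here, so the separation is not particular to these members.

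The ligands were led by TGFB1, the TGFβ isoform typical of blood and endothelium, which was abundant in every library and lower in ΔE2. TGFB1 (chr19:41836228-41859788, minus strand, NM_000660) had 75.0 and 71.2 FPKM in the controls, 53.0, 57.3 and 50.6 in ΔE2, and 67.4, 59.8 and 75.9 in ΔSE12313-b. The 3 ΔE2 clones lay below all other libraries, and the ΔSE12313-b clones overlapped with the controls. Against control TGFB1 fell by 0.45 (SE 0.11) on the log2 scale in ΔE2 (limma, Benjamini-Hochberg adjusted p = 0.00864), a mean of 53.6 ± 3.37 FPKM (SD, n = 3) beside 73.1 ± 2.73 (SD, n = 2). Without the first control library that adjusted p was 0.0671 (limma). The ΔSE12313-b difference was -0.12 (SE 0.11, limma adjusted p = 0.372). Centred, it was -0.40, with a limma adjusted p of 0.0136. Between the deletions TGFB1 was lower in ΔE2 by a difference of -0.33 (SE 0.10, limma adjusted p = 0.0377). That difference moved to -0.20 with a limma adjusted p of 0.177 once the libraries were centred. It also missed 0.05 by limma with quantile normalization (0.142), voom (0.11), the replicate block (0.0859), a fit without the trend (0.0643) or of both deletions alone (0.0672), and without control 1 (0.0674), control 2 (0.0675), ΔE2 1 (0.0976), ΔE2 3 (0.115), ΔSE12313-b 1 (0.0948) or ΔSE12313-b 3 (0.0794).

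TGFB2 (chr1:218518626-218617961, plus strand), the isoform known from heart and vessel development, was close to absent from the libraries. It had 1 and 0 reads in the controls, 2, 0 and 0 in ΔE2, and 0, 1 and 0 in ΔSE12313-b, 4 reads in all. Every library was at or below 3 reads, which for TGFB2 correspond to 0.0271 to 0.0429 FPKM, and no difference was detectable at this depth. The transcripts MIR548F3, TGFB2-AS1 and TGFB2-OT1, which overlap TGFB2, were listed at 0 in each library.

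Both TGFBR2, the type II receptor of TGFβ, and ACVRL1, the endothelial type I receptor of BMP9 and BMP10, were lower in the mean of either deletion than in control. TGFBR2 (chr3:30647994-30735633, plus strand, NM_003242) had 108 and 109 FPKM in the controls, 60.4, 87.5 and 64.3 in ΔE2, and 82.9, 68.9 and 99.7 in ΔSE12313-b. All 6 clones lay below both controls, and the second ΔE2 clone and the third ΔSE12313-b clone were the nearest to them. In ΔE2 TGFBR2 fell by 0.63 (SE 0.19, limma adjusted p = 0.0224), a ratio of the means of 0.653. That adjusted p rose to 0.0977 without control 1, 0.103 without control 2, 0.0659 without ΔE2 1 and 0.0681 without ΔE2 3 (limma). In ΔSE12313-b the difference was -0.39 (SE 0.19, limma adjusted p = 0.112). Centred it was -0.67 (limma adjusted p = 0.0164), and without the third ΔSE12313-b clone -0.52 (adjusted p = 0.0413). Between the deletions it was -0.25, with a 95% interval from -0.64 to 0.14.

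ACVRL1 (chr12:52306113-52317145, plus strand, NM_001077401) had 58.3 FPKM in both controls, 27.2, 53.6 and 31.3 in ΔE2, and 30.5, 26.6 and 46.7 in ΔSE12313-b. The same clones as for TGFBR2 were the high ones, and all 6 lay below the controls, ΔE2 clone 2 only just. The difference was -0.70 (SE 0.31, limma adjusted p = 0.0905) in ΔE2 and -0.80 (SE 0.31, limma adjusted p = 0.0577) in ΔSE12313-b, so neither passed. Without ΔE2 clone 2 the ΔE2 difference was -1.0 with a limma adjusted p of 0.0122, and the ΔSE12313-b adjusted p was 0.0181. Without ΔSE12313-b clone 3 the ΔSE12313-b difference was -1.03 (limma adjusted p = 0.0191). With both clones left out, a choice made after the values were seen, ACVRL1 was lower by -1.0 in ΔE2 (limma adjusted p = 0.000405) and by -1.03 in ΔSE12313-b (limma adjusted p = 0.000314). Centred on all libraries, the differences were -0.86 (limma adjusted p = 0.0481) and -1.08 (limma adjusted p = 0.0196). The ratio of the highest to the lowest clone of ACVRL1 was 1.98 in ΔE2 and 1.76 in ΔSE12313-b, beside a median of 1.22 and 1.23 over all genes tested.

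BMPR2, the type II receptor of BMPs, was higher in both deletions. BMPR2 (chr2:203241050-203432474, plus strand, NM_001204) had 8.71 and 9.18 FPKM in the controls, 12.7, 15.2 and 13 in ΔE2, and 12.0, 13.4 and 13.5 in ΔSE12313-b. Every clone lay above both controls and the deletions overlapped with each other. It rose by 0.60 (SE 0.10, limma adjusted p = 0.00173) in ΔE2 and by 0.53 (SE 0.10, limma adjusted p = 0.00264) in ΔSE12313-b, ratios of the means of 1.52 and 1.45. These lie under the 2-fold limit. Centred, the ΔSE12313-b rise was 0.24 with a limma adjusted p of 0.0722, and the ΔE2 rise was 0.44. The interval of the difference between the deletions ran from -0.14 to 0.28.

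**Figure D2:**
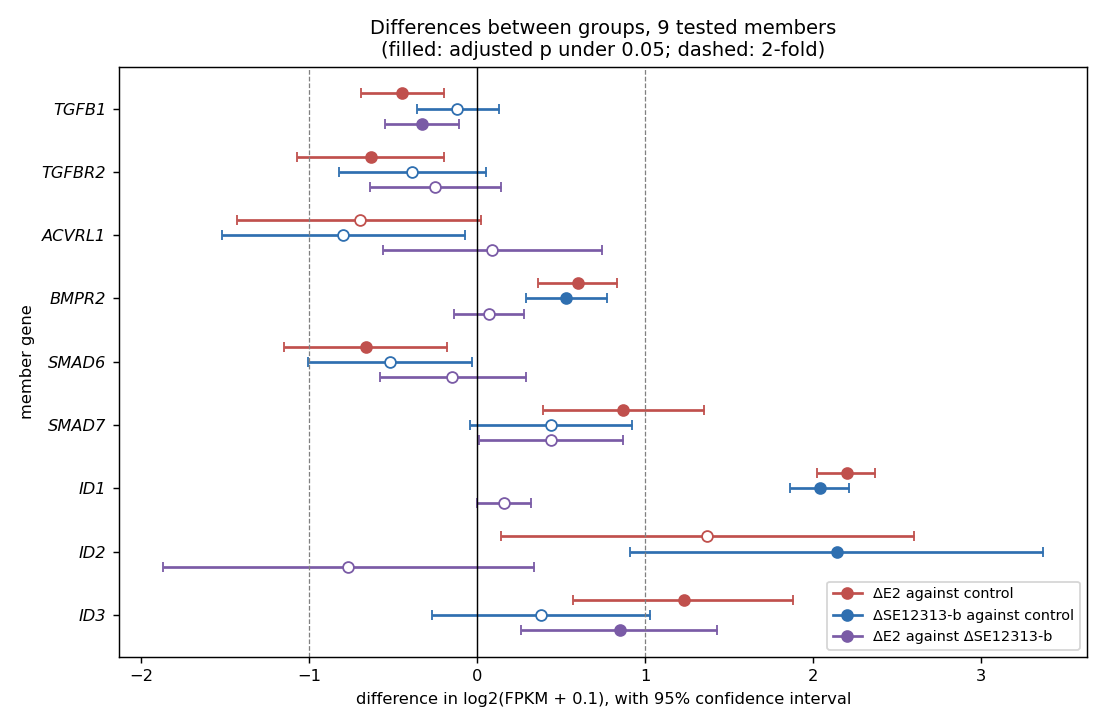
Difference in log2(FPKM + 0.1) between groups (horizontal axis) with its 95% confidence interval for the 9 tested members (vertical axis), for each deletion against control and for ΔE2 against ΔSE12313-b; filled points have an adjusted p under 0.05 and dashed lines mark 2-fold. ID1 stands at 2.20 and 2.04 with short intervals, and the intervals of ID2 are the widest of the 9. ID2 passed the filter only through clones, so its filled point is no support for a difference.

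The inhibitory SMADs went opposite ways in ΔE2, where SMAD6, which acts mostly on BMP receptors, fell and SMAD7, which acts on receptors of both branches, rose. SMAD6 (chr15:66994674-67074337, plus strand, NM_005585) had 1.70 and 1.53 FPKM in the controls, 1.00, 0.813 and 1.15 in ΔE2, and 1.255, 0.917 and 1.14 in ΔSE12313-b. These values rest on 39 to 62 reads per library, and all 6 clones lay below the controls. SMAD6 fell by 0.66 (SE 0.21, limma adjusted p = 0.0291) in ΔE2. Left out singly, control 1 (limma adjusted p = 0.145), control 2 (0.0837), ΔE2 1 (0.0573) and ΔE2 2 (0.0651) each took that result past 0.05, as did quantile normalization (0.0511). In ΔSE12313-b the difference was -0.52 (SE 0.21, limma adjusted p = 0.0649), and centred it was -0.81 (limma adjusted p = 0.0122).

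SMAD7 (chr18:46446223-46475703, minus strand, NM_001190822) had 1.96 and 2.03 FPKM in the controls, 3.55, 3.55 and 4.14 in ΔE2, and 3.35, 3.04 and 2.01 in ΔSE12313-b. The ΔE2 clones lay above every other library, and the third ΔSE12313-b clone lay between the controls. SMAD7 rose by 0.87 (SE 0.21, limma adjusted p = 0.00856) in ΔE2, from a mean of 2.0 ± 0.0467 (SD, n = 2) to 3.75 ± 0.343 FPKM (SD, n = 3). Without the first control library that adjusted p was 0.0561 (limma). In ΔSE12313-b the difference was 0.44 (SE 0.21, limma adjusted p = 0.104), and 0.65 without clone 3 (limma adjusted p = 0.00478). Centred values were 0.71 and 0.15. The direct difference between the deletions was 0.44 (limma adjusted p = 0.124).

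ID1 rose in both deletions and had the smallest spread between sister clones of the 9 tested members. ID1 (chr20:30193086-30194317, plus strand, NM_002165) had 15.0 and 13.3 FPKM in the controls, 66.9, 62.6 and 66.2 in ΔE2, and 60.5, 57.7 and 56.5 in ΔSE12313-b. The clones of each deletion lay close together, with a ratio of highest to lowest of 1.07 in each, and far above the controls. ID1 rose by 2.20 (SE 0.08, limma adjusted p = 5.5e-07) in ΔE2 and by 2.04 (SE 0.08, limma adjusted p = 7.7e-07) in ΔSE12313-b. The means were 4.61 and 4.12 times that of control, 14.1 ± 1.17 FPKM (SD, n = 2). Centred values were 2.04 and 1.75. The ΔE2 clones lay above the ΔSE12313-b clones without overlap, but the difference of 0.16 did not pass (SE 0.07, 95% interval 0.00 to 0.32, limma adjusted p = 0.119). Centred, it was 0.29 and passed (limma adjusted p = 0.0203).

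The table lists 2 transcripts of ID1, a shorter one of 989 bases and a longer one of 1229 that keeps 240 bases more, and nearly all reads lay in the shared part. Reads on the extra bases numbered 5 and 9 in the controls, 24, 26 and 17 in ΔE2, and 23, 23 and 6 in ΔSE12313-b. Per base they came to 11.0% and 23.3% of the shorter transcript in the controls, 7.83% to 10.1% in ΔE2 and 2.78% to 11.2% in ΔSE12313-b. In FPKM of those 240 bases alone this was 1.64 and 3.11 in the controls, 5.24, 6.33 and 5.20 in ΔE2, and 5.96, 6.47 and 1.57 in ΔSE12313-b. The third ΔSE12313-b clone was thus below both controls on the extra bases, while the other 5 clones were above them.

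ID2, like ID1 an inhibitor of E proteins, was expressed near the limit of detection and was higher in the clones. ID2 (chr2:8822113-8824583, plus strand, NM_002166) had 0.058 and 0.244 FPKM in the controls, 0.385, 0.430 and 0.757 in ΔE2, and 0.640, 1.74 and 0.695 in ΔSE12313-b. These were 1 and 4 reads, 10, 10 and 14 reads, and 14, 35 and 15 reads. All 6 clones lay above both controls. The filter asked for 0.5 FPKM in 2 libraries, and ID2 passed it only through 3 ΔSE12313-b clones and 1 ΔE2 clone, so its differences from control of 1.37 in ΔE2 and 2.14 in ΔSE12313-b on the log2 scale are given without a test. The reads pooled per group gave rate ratios to control of 3.38 in ΔE2 and 6.77 in ΔSE12313-b, which leave the spread between clones out. Between the deletions the difference was -0.77 with an interval from -1.87 to 0.34.

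ID3, the last of the ID genes among the members, was higher in ΔE2. ID3 (chr1:23884421-23886285, minus strand, NM_002167) had 9.00 and 7.59 FPKM in the controls, 20.7, 15.1 and 23.6 in ΔE2, and 13.3, 12.9 and 7.29 in ΔSE12313-b. The ΔE2 clones lay above all other libraries, while the third ΔSE12313-b clone lay below both controls. In ΔE2 ID3 rose by 1.23 (SE 0.28, limma adjusted p = 0.00737), a ratio of the means of 2.39, and without the second control library it was 1.11 (limma adjusted p = 0.0617). In ΔSE12313-b the difference was 0.38 (SE 0.28, limma adjusted p = 0.276), and 0.66 without clone 3 (limma adjusted p = 0.0263). Centred values were 1.07 and 0.09. Between the deletions ID3 was higher in ΔE2 by 0.85 (SE 0.25, limma adjusted p = 0.0423). That adjusted p missed 0.05 without control 1 (0.0722), control 2 (0.0725), ΔE2 1 (0.116), ΔE2 3 (0.131), ΔSE12313-b 2 (0.0501) or ΔSE12313-b 3 (0.0676), and without ΔE2 2 the difference was 1.03 (limma adjusted p = 0.0291). It also missed 0.05 by limma with the replicate block (0.077), a fit without the trend (0.0661), a fit of both deletions alone (0.0727) or a looser filter (0.0613).

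**Figure D3:**
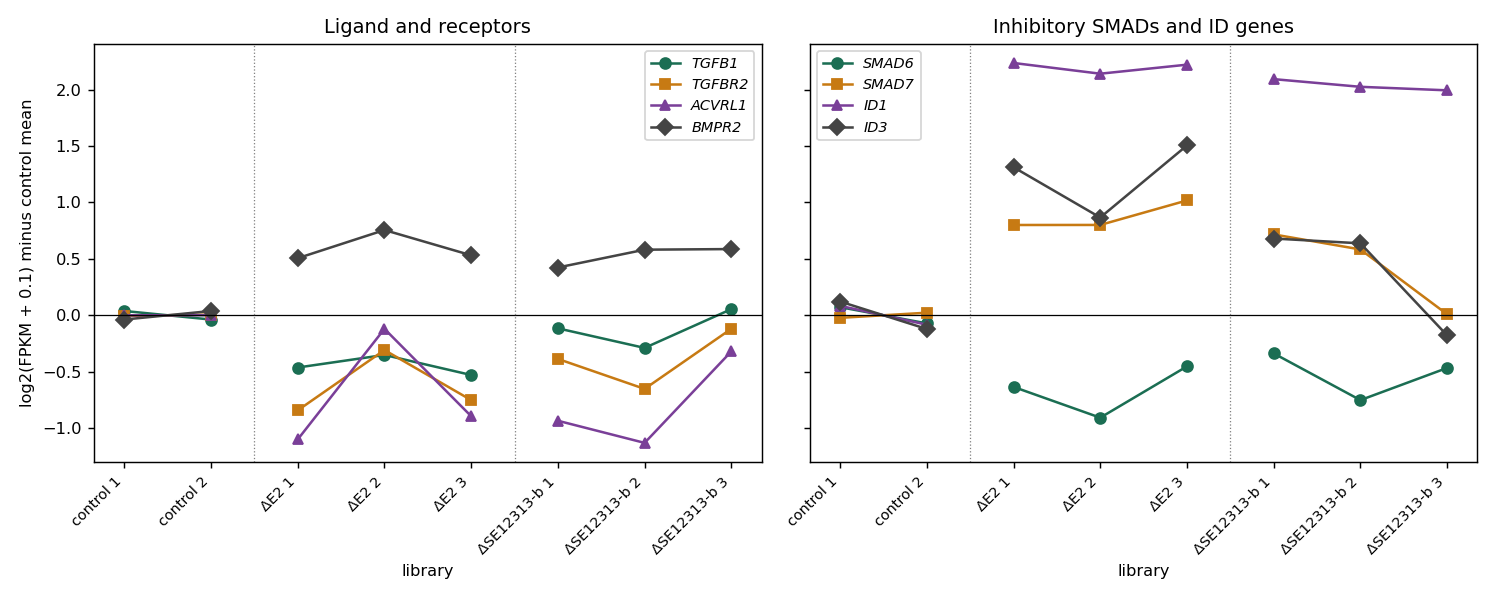
Log2(FPKM + 0.1) of 8 members minus the mean of the 2 controls (vertical axis) in each of the 8 libraries (horizontal axis); lines join libraries of one group only. ACVRL1 and TGFBR2 are highest among their sister clones in ΔE2 2 and ΔSE12313-b 3, where ID3 is lowest, whereas ID1 is level over the clones.

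By group mean in the controls, the order of levels per length was TGFBR2 (108 FPKM), TGFB1 (73.1), ACVRL1 (58.3), ID1 (14.1), BMPR2 (8.95), ID3 (8.29), SMAD7 (2.0), SMAD6 (1.61), ID2 (0.151) and TGFB2 (0.007). BMPR2 and ID3 overlapped in the controls, where 9.00 FPKM of ID3 lay between the values of BMPR2, and each of the other neighbours was apart in both libraries except ID2 and TGFB2, which both rest on a few reads. In ΔE2, ID1 had a mean of 65.2 ± 2.29 FPKM (SD, n = 3), above ACVRL1 at 37.4 ± 14.2 and TGFB1 at 53.6 ± 3.37, and within the range of TGFBR2 at 70.7 ± 14.7. In ΔSE12313-b, ID1 had 58.3 ± 2.06 FPKM (SD, n = 3), below TGFB1 at 67.7 ± 8.06 in each of its libraries and above each ACVRL1 value.

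For the members whose libraries varied in distinct ways, the genes closest to them over the 8 libraries were sought by the root-mean-square distance of log2(FPKM + 0.1) after each gene was centred on its own mean. Nearest to ID1 were ANAPC15 (distance 0.081), SMC2 (0.087) and CKS1B (0.091), where ID1 itself varied by 0.921 around its mean. ANAPC15 had means of 3.87 (control), 16.9 (ΔE2) and 14.2 FPKM (ΔSE12313-b), and CKS1B of 16.8, 77.2 and 75.6. Nearest to ID3 were UAP1 (0.105), RNASEH2C (0.117) and VGLL3 (0.152). UAP1 was like ID3 in having its lowest ΔE2 level in clone 2 (75.5 FPKM beside 123 and 131) and its lowest ΔSE12313-b level in clone 3 (40.8 beside 66.2 and 66.7). Nearest to ACVRL1 were SOX4 (0.115), ARHGEF17 (0.131) and HLA-E (0.144), with SOX4 at 20.6 FPKM in ΔE2 clone 2 and 22.0 in ΔSE12313-b clone 3, close to 23.4 and 23.7 in the controls. Nearest to SMAD7 were ADGRG6 (0.048), ALCAM (0.086) and HYI (0.098). For TGFB1 the nearest were MIR6805, RPL28 and PRKAR1A, for TGFBR2 PPFIA3, KLHL5 and L3MBTL3, for BMPR2 ZNF518B, TNFAIP1 and GNAQ, for SMAD6 INAFM1, PNPLA2 and KAT8, and for ID2 TMEM236, SP140 and LOC101928000. These genes are named for likeness over 8 libraries only.

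The rest of the pathway was taken from 7 lists with 125 genes, of which 124 were in the table and 75 were tested. In ΔE2, 20 of the 75 were called, 7 higher and 13 lower, beside the 11.2% and 8.36% of all genes given above. In ΔSE12313-b, 24 were called, 12 higher and 12 lower, beside 14.7% and 7.83%. The even split depends on the scaling, being 5 higher and 17 lower with the libraries centred, 6 and 17 with voom, and 8 and 16 with quantile normalization. In ΔE2 it was 6 and 16 with the libraries centred. Among the calls in each deletion are BAMBI and LDLRAD4, which passed the filter only through the libraries where they were high. LTBP1 and NOG, called in ΔE2 and between the deletions, likewise reached the minimum in no ΔE2 clone. The median difference of the 75 was 0.00 in ΔE2 and 0.07 in ΔSE12313-b. Between the deletions 4 of the 75 were called, 1 higher in ΔE2 and 3 lower, near the 4.23% of all genes. The lists were assembled with earlier results of these data known and support nothing about the pathway as a whole.

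Among the other ligands, 5 of 25 passed the filter and 10 had no read in any library, among them BMP2, BMP4, BMP7 and the ACVRL1 ligand GDF2 (BMP9). In each deletion 2 were called lower and 1 higher. GDF15, a stress-induced distant member of the family, was the most abundant, with 193 and 186 FPKM in the controls, 64.5, 61.7 and 57.9 in ΔE2, and 73.7, 60.4 and 71.7 in ΔSE12313-b. All clones lay far below the controls, and GDF15 fell by 1.63 (SE 0.10, limma adjusted p = 8.71e-06) and 1.47 (limma adjusted p = 1.24e-05). AMH, anti-Müllerian hormone, had a control mean of 3.03 FPKM, beside 1.15 in ΔE2 (-1.34) and 1.37 in ΔSE12313-b (-1.09, under 2-fold without control 1, at -0.94, and without ΔSE12313-b 3, at -0.97). GDF11, an activin-like ligand, averaged 1.57 in control, 3.31 in ΔE2 (1.03, under 2-fold without control 2, at 0.95, and without ΔE2 3, at 0.97) and 4.25 in ΔSE12313-b (1.38). BMP6, a BMP made by endothelial cells, was called in neither deletion, with differences of 0.47 and -0.41 from control, and its direct difference was 0.88 (limma adjusted p = 0.00565) with means of 12.9 FPKM in ΔE2 and 7.08 in ΔSE12313-b.

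Of the other receptors and co-receptors, 9 of 15 were tested, 1 was called lower in ΔE2, and 2 were called higher and 1 lower in ΔSE12313-b. RGMB, a membrane-bound co-receptor of BMPs, had 21.6 and 22.4 FPKM in the controls, 6.57, 6.21 and 7.18 in ΔE2, and 6.12, 6.01 and 7.03 in ΔSE12313-b. The clones lay together and well below the controls, with a fall by 1.71 (limma adjusted p = 8.07e-06) and 1.77 (limma adjusted p = 5.56e-06). TGFBR3 (betaglycan), a co-receptor that presents TGFβ, was 5.64 FPKM in ΔSE12313-b beside 2.35 in control, a rise by 1.22 (limma adjusted p = 0.000239), and 0.93 centred. BMPR1A, a type I BMP receptor, rose by 1.02 in ΔSE12313-b (limma adjusted p = 0.00114), under 2-fold without control 1 (0.92), ΔSE12313-b 1 (0.92) or ΔSE12313-b 2 (0.96), and 0.73 centred. Neither ENG (endoglin), with means of 162, 214 and 224 FPKM in control, ΔE2 and ΔSE12313-b, nor ACVR1B was called.

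All 6 receptor-regulated and common SMADs were tested, and SMAD9 alone was called, higher in each deletion. SMAD9, a BMP effector, had 0.432 and 0.545 FPKM in the controls, 1.28, 1.26 and 1.42 in ΔE2, and 1.24, 1.21 and 1.06 in ΔSE12313-b. Each clone lay above the controls, of which 1 was under the minimum of 0.5 FPKM. SMAD9 rose by 1.28 (limma adjusted p = 0.000852) and 1.11 (limma adjusted p = 0.00143), the latter under 2-fold without control 1 (0.97) and 0.82 when centred. SMAD3, the TGFβ effector and the most abundant of the list, was 43.8 FPKM in control, 38.6 in ΔE2 and 32.6 in ΔSE12313-b, differences of -0.18 and -0.43 that were not called. SMAD5 was within 0.24 of control in both.

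The proteins that store TGFβ outside the cell and the antagonists of BMPs included several genes that fell. Of 25 listed, 13 were tested, with 4 called lower and 1 higher in ΔE2 and 3 lower and 1 higher in ΔSE12313-b. LTBP1, LTBP3 and LTBP4 bind latent TGFβ to the matrix. LTBP4 had 56.1 and 55.4 FPKM in the controls, 16.8, 14.9 and 13.2 in ΔE2, and 18.9, 19.6 and 22.1 in ΔSE12313-b. It fell by 1.90 (limma adjusted p = 7.7e-06) and 1.46 (limma adjusted p = 2.41e-05), and LTBP3 by 1.58 and 1.45 from a mean of 39.0 FPKM. LTBP1 had 2.34 and 2.25 FPKM in the controls, 0.210, 0.235 and 0.266 in ΔE2, and 0.812, 0.651 and 1.998 in ΔSE12313-b. Its ΔE2 difference of -2.83 is given without a test, since no ΔE2 clone reached the minimum of 0.5 FPKM. The ΔSE12313-b difference of LTBP1, -1.09 with clone 3 close to control, did not pass (limma adjusted p = 0.0519).

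NOG (noggin), which binds BMPs and keeps them from receptors, had 2.25 and 2.24 FPKM in the controls, 0.249, 0.371 and 0.117 in ΔE2, and 1.05, 0.643 and 0.833 in ΔSE12313-b. The groups did not overlap, and the ΔE2 values rest on 3 to 12 reads. NOG fell by 1.34 in ΔSE12313-b (limma adjusted p = 0.0131), a call lost without control 1 (-1.33) or control 2 (-1.34). No ΔE2 clone reached the minimum of 0.5 FPKM, so the ΔE2 difference of -2.83 is given without a test. THBS1 (thrombospondin-1), which can activate latent TGFβ, had 104 and 103 FPKM in the controls, 219, 296 and 279 in ΔE2, and 109, 108 and 140 in ΔSE12313-b. All ΔE2 clones lay above the rest, with a rise by 1.34 (limma adjusted p = 0.000245) and a ΔSE12313-b difference of 0.19 (limma adjusted p = 0.309). FSTL1, a secreted glycoprotein, was 99.6 FPKM in ΔE2 beside 52.8 in control, a rise by 0.91 that stayed under 2-fold. The 4 list genes called between the deletions were THBS1 (1.15, limma adjusted p = 0.00149), NOG (-1.50), LTBP1 (-1.75) and NRROS (-2.29, limma adjusted p = 0.000257). For NOG and LTBP1 no test is given here either, since the ΔE2 clones were all under the minimum. NRROS, a tether of latent TGFβ named after its values were seen, had 3.11 FPKM in control, 1.96 in ΔE2 and 9.90 in ΔSE12313-b.

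**Figure D4:**
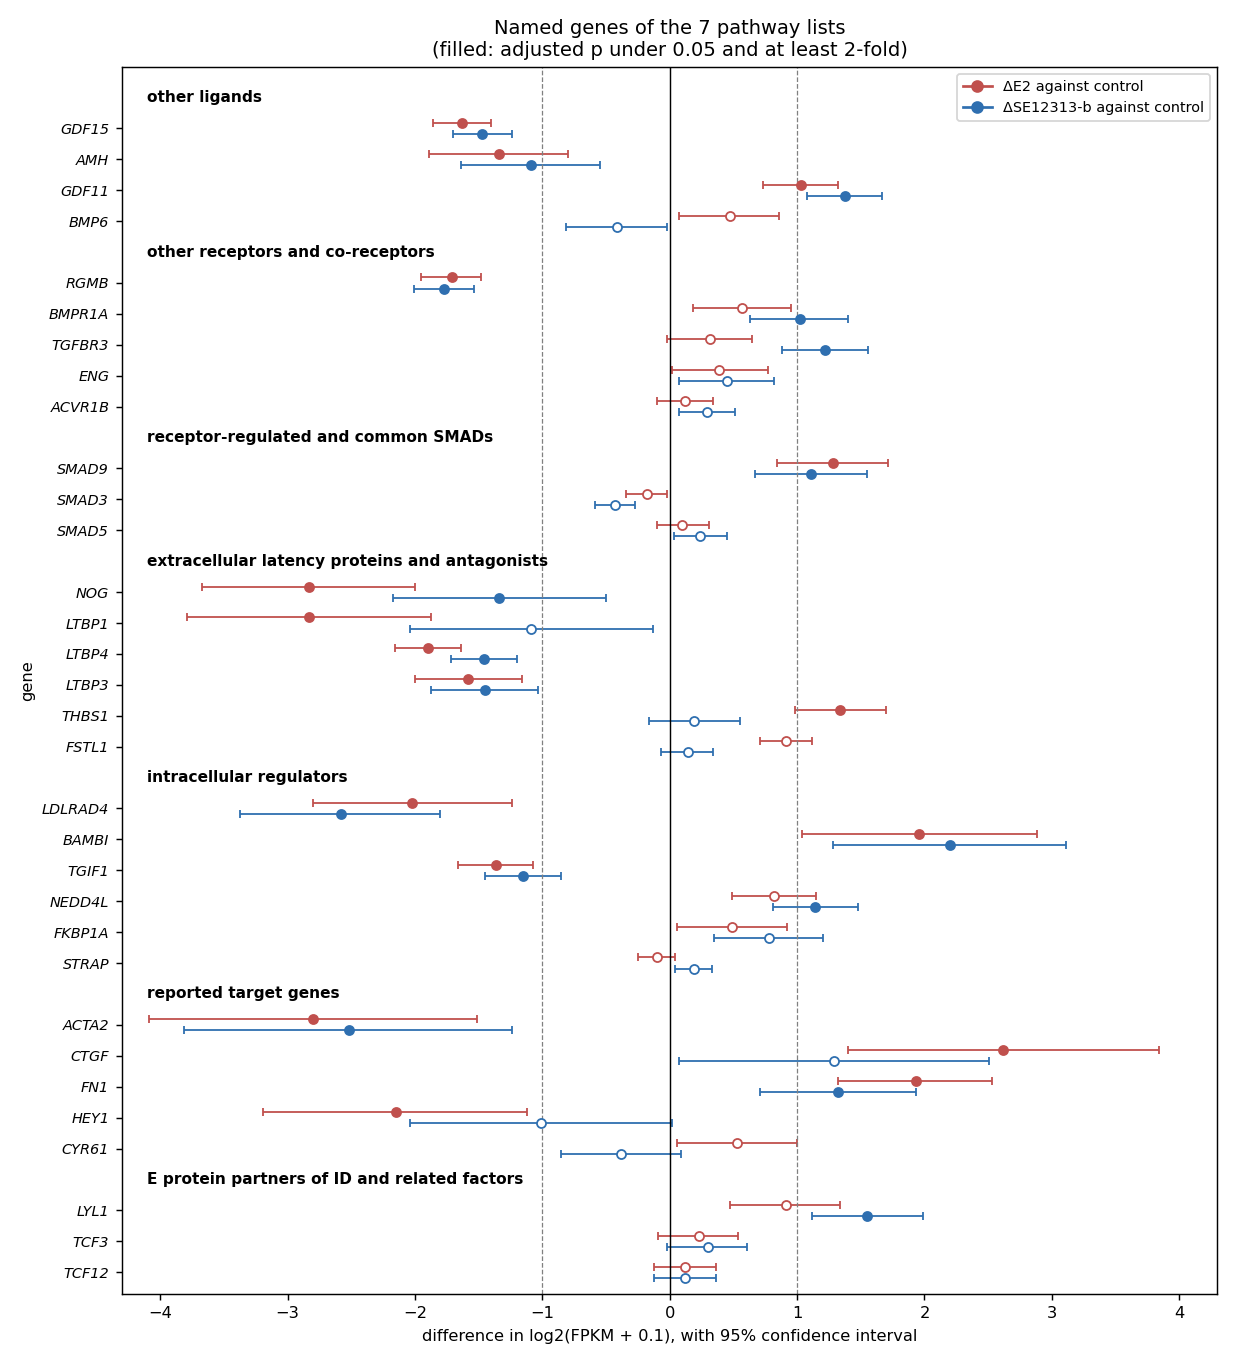
Difference in log2(FPKM + 0.1) against control (horizontal axis) with its 95% confidence interval for named genes of the 7 pathway lists (vertical axis), ΔE2 and ΔSE12313-b; filled points are called, at 2-fold or more with an adjusted p under 0.05, and dashed lines mark 2-fold. RGMB, GDF15, LTBP3, LTBP4, TGIF1 and LDLRAD4 lie at or below -1 for each deletion, and BAMBI lies near 2. BAMBI and LDLRAD4, and in ΔE2 also LTBP1 and NOG, passed the filter only where they were high.

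Of the 21 intracellular regulators 20 were tested, and 1 was called higher and 2 lower in ΔE2, 3 higher and 2 lower in ΔSE12313-b. LDLRAD4, a membrane protein that limits TGFβ signals, had 1.36 FPKM in the mean of the controls, 0.260 in ΔE2 and 0.146 in ΔSE12313-b. Only the 2 controls reached the minimum of 0.5 FPKM, and its differences of -2.02 and -2.58 are given without a test. TGIF1, a repressor that binds SMADs, fell from 61.0 FPKM to 23.7 (-1.36) and 27.6 (-1.15). BAMBI, a decoy receptor without a kinase, had 0.183 and 0.145 FPKM in the controls, 1.07, 0.611 and 1.20 in ΔE2, and 1.63, 1.18 and 0.696 in ΔSE12313-b. The controls held 4 and 3 reads and every clone at least 18, with differences of 1.96 and 2.20. Here the clones alone reached the minimum, and no test is given. NEDD4L, a ubiquitin ligase of SMADs, rose by 1.14 in ΔSE12313-b (0.86 centred) and by 0.82, under 2-fold, in ΔE2. FKBP1A and STRAP, the most abundant of the list, were not called.

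Among the genes reported as targets of these signals, 18 of 28 were tested, with 3 called higher and 4 lower in each deletion. ACTA2, smooth muscle actin, had 6.27 and 4.91 FPKM in the controls, 0.313, 1.61 and 0.659 in ΔE2, and 0.558, 0.970 and 1.24 in ΔSE12313-b. It fell by 2.80 (limma adjusted p = 0.00369) and 2.52 (limma adjusted p = 0.00519). CTGF, a matricellular TGFβ target, had 17.2 and 16.4 FPKM in the controls, 126, 53.7 and 162 in ΔE2, and 58.4, 53.7 and 22.1 in ΔSE12313-b. The ΔE2 rise was 2.62 (limma adjusted p = 0.00397), and the ΔSE12313-b difference of 1.29 did not pass (limma adjusted p = 0.0658). As with ID3, the lowest clones for CTGF were ΔE2 2 and ΔSE12313-b 3.

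FN1, fibronectin, averaged 2.37 FPKM in control, 9.68 in ΔE2 (1.93) and 6.06 in ΔSE12313-b (1.32), and was called in each. HEY1, a repressor downstream of Notch and BMP, fell in ΔE2 from 3.05 to 0.686 FPKM (-2.15, limma adjusted p = 0.00445), and its ΔSE12313-b difference was -1.01 (limma adjusted p = 0.0824). CYR61 was not called, with differences of 0.53 and -0.38.

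Of 6 listed factors, which are E proteins, the partners of ID proteins, and related helix-loop-helix factors, 5 were tested. In ΔE2, 2 of them (LYL1 and TCF4) had an adjusted p under 0.05 by limma with changes under 2-fold, where 54.1% of all genes had one, and LYL1 was called in ΔSE12313-b. LYL1, a helix-loop-helix factor of blood and endothelium, had 5.92 and 6.42 FPKM in the controls, 11.8, 10.8 and 12.3 in ΔE2, and 19.955, 13.7 and 22.4 in ΔSE12313-b. It rose by 0.91 in ΔE2 (limma adjusted p = 0.00466), under 2-fold, and by 1.55 in ΔSE12313-b (limma adjusted p = 0.000252). The E protein TCF4, named after its values were seen, had means of 9.20 FPKM in control, 15.5 in ΔE2 and 8.29 in ΔSE12313-b. Its difference was 0.71 in ΔE2 (limma adjusted p = 0.0249), -0.16 in ΔSE12313-b and 0.87 between the deletions (limma adjusted p = 0.0149). The E proteins TCF3 (0.23 and 0.30) and TCF12 (0.12 in each) were not called.

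Some of the named genes overlap other transcripts, and how strands were counted is not given in the sources used here. GDF11 shares 908 bases with SARNP, BMP6 shares 479 with BLOC1S5-TXNDC5, RGMB 3467 with RGMB-AS1 and ACTA2 839 with FAS, each on the opposite strand, and reads in those stretches cannot be assigned with certainty. Over the 8 libraries SARNP averaged 25.5 FPKM beside 3.23 for GDF11, and BLOC1S5-TXNDC5 70.4 beside 9.82 for BMP6. RGMB-AS1 averaged 0.151 FPKM beside 10.4 for RGMB, and FAS 2.89 beside 2.07 for ACTA2.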

How the data were processed

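RNA of 8 EA.hy926 libraries was sequenced by the authors. Their processing notes name Trim Galore 0.4.4, STAR 2.5.4b, featureCounts and GRCh37, and for their own calls the authors ran edgeR on Gencode counts. The deposited table holds FPKM per RefSeq transcript, and the program, the RefSeq release and the strand setting behind it are not given in the sources used here. Since FPKM are not counts, limma 3.58.1 (R 4.3.3, empirical Bayes with trend, 3 groups, two-sided) was run on log2(FPKM + 0.1) in place of a count test, for 13790 genes with at least 0.5 FPKM in at least 2 libraries.

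Whole reads were recovered from the FPKM, and give the depth, the pooled rate ratios and voom. Recovery was checked only for nonzero values below a set read number whose rounding error was small. Of these, 100.0% lay within 0.1 of a whole read, and larger values were not checked. Steps were tested on simulated data. The replicate numbers did not pair the libraries. Members and lists were chosen with earlier results of these data known. Named are all members and, from each list, up to 4 called genes with the largest mean absolute change and the 2 most abundant, and the 3 genes nearest to each member. A gene that this rule names is not reported here. Windows of 1500 bases were added after the values had been seen. Alternatives were other pseudocounts (0.01, 1), filters, scalings, transcripts, a 1.5-fold limit, a replicate block, voom, and each library left out. Tables and plots were made with Python 3.11.15.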

Additional observations from a re-analysis of the deposited data

Results flagged for a closer look

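TGFB1 differed between the deletions, with a difference of -0.33 on the log2 scale for ΔE2 against ΔSE12313-b (limma, Benjamini-Hochberg adjusted p = 0.0377). The 3 ΔE2 libraries lay below all 3 ΔSE12313-b libraries. The adjusted p was 0.177 with each library centred, and it missed 0.05 in 6 of the 8 fits that left out 1 library.

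ID3 differed between them as well, by 0.85 (limma, Benjamini-Hochberg adjusted p = 0.0423), with all 3 ΔE2 libraries above all 3 ΔSE12313-b libraries, and that adjusted p too missed 0.05 in 6 of the 8 fits without 1 library. The groups of 2 and 3 libraries were too small for a search for single libraries far from the others.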

How the results depend on the processing

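ID1 was called in both deletions under every alternative that was run. In ΔE2 the number of members called went from 2 to 5 with quantile normalization (TGFBR2, ACVRL1 and ID2 added) and 6 with a 1.5-fold limit, and in ΔSE12313-b from 2 to 1 with a pseudocount of 1 or a mean FPKM of at least 1, where ID2 was lost, and to 3 with each library centred, quantile normalization or voom, where ACVRL1 was added as lower. Between the deletions it went from 0 to 1 with the 1.5-fold limit. Of the pathway genes, 31 in place of 20 were called in ΔE2 with the 1.5-fold limit, and between the deletions 2 with a pseudocount of 1, 15 with the 1.5-fold limit, 7 with voom and 9 without both clones that stood apart, in place of 4. With 1 library left out, the members called were 2 to 3 in ΔE2, 1 to 3 in ΔSE12313-b (1 without control 1) and 0 to 1 between the deletions (1, ID3, without ΔE2 2), and the pathway genes called were 19 to 22, 18 to 26 and 4 to 9 (9 without ΔE2 2). Between the deletions the small difference of ACVRL1 ranged from -0.20 (without ΔE2 2) through -0.08 (without ΔSE12313-b 2) to 0.33 (without ΔSE12313-b 3), that of BMPR2 from -0.01 (without ΔE2 2) to 0.11 (without ΔE2 1), and that of SMAD6 was 0.00 without both clones. The cause of these moves was not tested, beyond the construction of the limits and filters.

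Libraries with the same replicate number did not deviate together (correlations from -0.08 to 0.107). With a replicate block the members called stayed at 2, 2 and 0 and the pathway genes called were 19, 24 and 4, while the differences between the deletions had limma adjusted p of 0.0859 (TGFB1) and 0.077 (ID3). Of the 40 calls of named pathway genes, 14 were lost with a pseudocount of 1, 5 with each library centred and 2 with the replicate block. Only 2 control libraries, low reads for ID2, SMAD6 and BAMBI, and a source of the control RNA that is not stated limit these comparisons.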
